A study of Mus musculus with 31 samples.

Results

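Fluoxetine alone was set against folic acid (FA) alone in the lactating mammary gland. The comparison took the 7 dams given breeder diet + fluoxetine and the 8 dams given FA diet + saline, by the diet and injection in the sample labels, which makes 15 of the 31 libraries of the series. All dams were C57BL/6J mice sampled on lactation day 10. Breeder diet held 4 mg/kg FA and the FA diet 24 mg/kg, and feeding started 2 weeks before mating. Fluoxetine at 20 mg/kg or saline was injected intraperitoneally each day from embryonic day 13 on. The other libraries came from 8 dams on breeder diet + saline, called untreated below, and 8 dams on FA diet + fluoxetine. Each library held polyadenylated RNA of 1 dam. Both groups compared differ from each other in diet and in drug, so a difference between them cannot be told apart into a part from fluoxetine and a part from FA without the untreated dams.

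Fluoxetine is a selective serotonin reuptake inhibitor, which blocks the transporter that brings serotonin back into cells. The mammary gland makes its own serotonin, which acts on milk secretion, on the junctions between secretory cells and on calcium transfer into milk. Folate carries one-carbon units for the synthesis of nucleotides and for the methionine cycle, which supplies the methyl groups of DNA, protein and lipid methylation. In a lactating alveolus, luminal cells make the milk, and a basket of contractile myoepithelial cells around them, which respond to oxytocin, ejects it.

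Total counts lay between 17680150 and 23875965 per dam with breeder diet + fluoxetine and between 17279592 and 27165214 with FA diet + saline. Expression is given in TMM-normalized CPM, the counts of a gene scaled to a common effective library size. The effective size of a library is its total counts times its TMM factor. With breeder diet + fluoxetine the factors were 0.819 to 1.068, and 1.566 in dam 13. With FA diet + saline they were 0.7157 to 0.9896, and 1.249 in dam 3. A lower factor gives a higher CPM for the same share of counts, so a sum in CPM is not a share of a library's counts. The tissue was lactating mammary gland by its markers. The 8 milk protein genes summed to between 313435 and 783383 CPM with breeder diet + fluoxetine and to between 466912 and 956726 CPM with FA diet + saline. In each group 1 library stood apart, with the lowest share of counts in the 20 genes most abundant over all libraries of the series. It was dam 13 of breeder diet + fluoxetine, at 60.5% beside a group median of 77.0%, and dam 3 of FA diet + saline, at 70.1% beside 79.2%. Dam 3 of FA diet + fluoxetine, which is in neither group compared, had 39.3%. Skeletal muscle RNA varied between dams in both groups. The 12 muscle markers summed to between 2.13 and 7204 CPM with breeder diet + fluoxetine, with dam 5 the highest, and to between 8.01 and 4463 CPM with FA diet + saline, with dam 4 the highest.

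Between both groups, 1 gene passed the threshold of a false discovery rate (FDR) of 10%. *Tes* (ENSMUSG00000029552), which encodes testin, a LIM-domain protein of focal adhesions and actin filaments, was 1.70-fold lower with breeder diet + fluoxetine than with FA diet + saline. It lies at chr6:17065144-17105827 on the plus strand of GRCm39. Its level was 12, 15.6 and 18.8 CPM at the lowest, median and highest dam of breeder diet + fluoxetine, and 17.2, 26.3 and 32.9 CPM in FA diet + saline. Of the 7 dams with fluoxetine alone, 5 lay below every dam with FA alone, and the groups overlapped through dams 6 and 7 of breeder diet + fluoxetine and dam 5 of FA diet + saline. The means were 15.2 ± 2.65 CPM (SD, n = 7) and 25.9 ± 5.34 CPM (SD, n = 8). The log2 fold change of *Tes* was -0.77 ± 0.14 (SE), with an adjusted p of 0.0837 (edgeR, quasi-likelihood test, Benjamini-Hochberg adjustment over all genes). Untreated dams lay between both groups, at 19.5 ± 2.87 CPM (SD, n = 8), as did FA diet + fluoxetine, at 19.1 ± 3.69 CPM (SD, n = 8). *Tes* also passed by the study's likelihood ratio test (adjusted p of 0.0151), by DESeq2 (3.11e-04) and by voom (0.01). The call of *Tes* was lost when the 15 libraries of both groups were fitted alone (adjusted p of 0.264), without the filter on low counts (0.241) and with the animal number as a block (0.5). The block left dams 7, 8, 9 and 13 of breeder diet + fluoxetine without weight in the contrast, as their numbers occur in no other group. The adjusted p also passed 0.1 when any of dams 2, 5, 8, 9 and 13 of breeder diet + fluoxetine was left out, or any of dams 1, 2, 10, 11 and 12 of FA diet + saline, with values between 0.103 and 0.384, while the log2 fold change stayed between -0.83 and -0.71. In bulk tissue, fewer cells of a type and less RNA per cell cannot be told apart.

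*Tes* was 1 of 14362 genes tested (0.00696%). Without adjustment, 567 genes were higher with fluoxetine alone (3.95%) and 406 lower (2.83%) at a p of 0.05 or below, and 213 of them also met 0.01. The shares of 3.95% and 2.83% are those to set beside the counts of list members at that p given below. The median log2 fold change over all genes tested was 0.00127, with 7199 genes higher and 7163 lower. All genes named below other than *Tes* missed the threshold of 10% in this test, and their values are given as measured.

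**Figure D1:**
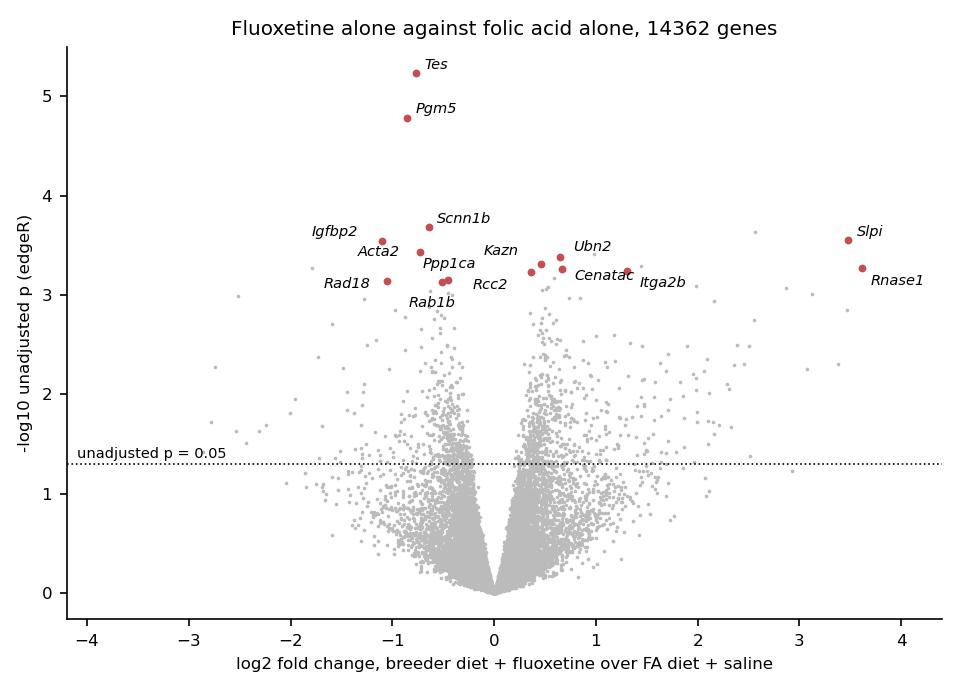
Log2 fold change of breeder diet + fluoxetine over FA diet + saline (x axis) against -log10 of the unadjusted p of edgeR's quasi-likelihood test (y axis) for 14362 genes, with the 8 lower and 7 of the 8 higher protein-coding genes of smallest p (mean of at least 1 CPM) labelled. *Tes*, the gene past the threshold, lies at the top left at -0.77, and *Slpi* and *Rnase1* lie farthest to the right of the labelled genes at 3.48 and 3.62.

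The 8 protein-coding genes of smallest p that were lower with fluoxetine alone began with *Tes* and *Pgm5*. They also held *Acta2*, smooth muscle actin. The product of *Pgm5*, aciculin, lacks phosphoglucomutase activity and sits at adherens junctions and muscle attachment sites. *Pgm5* was at 1.95, 2.79 and 3.79 CPM at the lowest, median and highest dam with fluoxetine alone and at 3.74, 4.83 and 7.54 CPM with FA alone. Only dam 7 with fluoxetine alone reached the range of FA alone. Its log2 fold change was -0.86 ± 0.17 (SE) with an adjusted p of 0.118, the closest to the threshold after *Tes*. It passed by the study's likelihood ratio test (adjusted p of 0.0296) and by voom (0.0444). *Acta2* was at 95.4, 118 and 191 CPM with fluoxetine alone and at 155, 207 and 297 CPM with FA alone. The log2 fold change of *Acta2* was -0.73 ± 0.18 (SE) with an unadjusted p of 3.66e-04 and an adjusted p of 0.477, beside 0.0506 by DESeq2 and 0.0804 by voom, and 6 of 7 dams with fluoxetine alone lay below every dam with FA alone.

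The other 5 genes of this group have varied functions. *Scnn1b*, the beta subunit of the epithelial sodium channel, was at 6.59 ± 2.07 CPM (SD, n = 7) with fluoxetine alone and 10.3 ± 1.71 CPM (SD, n = 8) with FA alone. *Igfbp2*, which binds insulin-like growth factors, had the largest log2 fold change among the 8 genes, at -1.10 ± 0.27 (SE), with 6.43 ± 3.04 CPM (SD, n = 7) and 13.8 ± 6.37 CPM (SD, n = 8). *Rad18*, an E3 ligase of post-replication DNA repair, followed at -1.06 ± 0.28 (SE) on a low level, 0.827 and 1.73 CPM on average. *Ppp1ca*, a catalytic subunit of protein phosphatase 1, and *Rab1b*, a GTPase of transport from the endoplasmic reticulum to the Golgi, had smaller values of -0.46 ± 0.12 and -0.52 ± 0.14 (SE). For *Scnn1b*, *Ppp1ca* and *Rab1b*, 5 of 7 dams with fluoxetine alone lay below every dam with FA alone. All 5 genes had an adjusted p of 0.477.

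**Figure D2:**
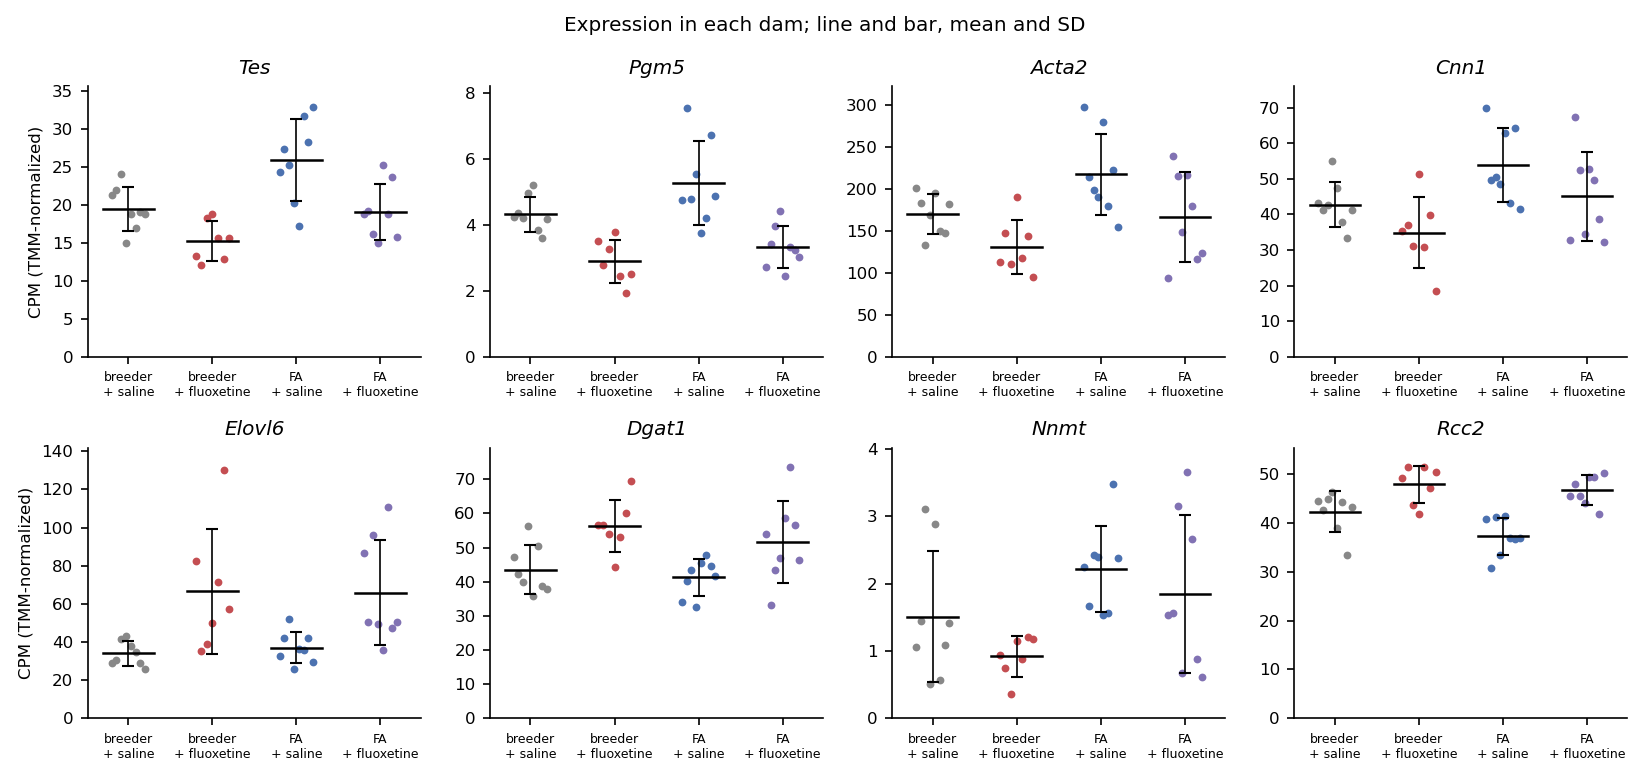
Expression of 8 genes in CPM (y axes, linear from 0) in each dam of the 4 groups, with points for dams and a line and bar for the mean and SD. For *Tes*, *Pgm5*, *Acta2* and *Cnn1*, breeder diet + fluoxetine has the lowest mean and FA diet + saline the highest, and for *Elovl6* both groups given fluoxetine have higher means (66.5 and 65.9 CPM) than both groups given saline (34.0 and 37.0 CPM).

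*Acta2* belongs to the markers of myoepithelial cells, a list of 10 genes that were all tested. Of these, 9 were lower and 1 higher with fluoxetine alone, with a median log2 fold change of -0.41 beside 0.00127 over all genes. None passed 10%, and 5 had an unadjusted p of 0.05 or below, all lower. These were *Acta2*, *Cnn1* (calponin, an actin-binding protein of smooth muscle), *Mylk* (the kinase that switches on smooth muscle myosin), *Oxtr* (the oxytocin receptor) and *Myh11* (smooth muscle myosin heavy chain), of which all but *Acta2* are named after their values were seen. *Cnn1* was at 18.6, 35.2 and 51.2 CPM at the lowest, median and highest dam with fluoxetine alone and at 41.6, 50.1 and 69.9 CPM with FA alone, and its log2 fold change was -0.63 ± 0.17 (SE). Only dam 7 with fluoxetine alone lay within the range of FA alone. *Cnn1* shares 35.1% of its exon bases with *Elof1* on the opposite strand, and the strand option of the counting is not given in the sources used here. *Mylk* had 25.6, 29.1 and 49.1 CPM and 39.7, 49.4 and 64.0 CPM, with a log2 fold change of -0.56 ± 0.16 (SE). *Oxtr* had 13.3, 15.7 and 28.6 CPM and 16.4, 24.9 and 35.7 CPM, with -0.55 ± 0.20 (SE). *Myh11* had 55.8, 92.4 and 149 CPM and 102, 134 and 216 CPM, with -0.49 ± 0.19 (SE). In all 5 genes dam 7 was the highest with fluoxetine alone.

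The contractile genes of the list stood apart from its basal keratins in size of difference. *Acta2*, *Cnn1*, *Mylk*, *Myh11* and *Tagln* (transgelin) had log2 fold changes between -0.73 and -0.34, and their CPM summed to 212, 299 and 484 at the lowest, median and highest dam with fluoxetine alone and to 378, 469 and 673 with FA alone. Of the 7 dams with fluoxetine alone, 5 lay below the lowest dam with FA alone. *Krt5*, *Krt14* and *Krt17*, keratins of the basal cell layer, and *Trp63*, the transcription factor p63 that marks basal cells, had log2 fold changes between -0.21 and 0.08, and their sums were 43.0 to 71.6 CPM and 52.5 to 91.2 CPM. This split of the list was made after its values were seen, and the difference between its 2 parts was not tested. The contractile sum of untreated dams was 364 to 448 CPM with a median of 416 CPM, between both medians. The median log2 fold change of the 10 markers lay between -0.52 and -0.31 when each of the 15 dams was left out in turn, the last value without dam 13 of breeder diet + fluoxetine. Against untreated dams the list had a median of -0.19 with fluoxetine alone and of 0.22 with FA alone, 2 values that share their control dams.

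Bases before the starts of 4 of these genes are shown to place *Tes* beside the contractile genes, many of which are driven by serum response factor at CArG boxes and by TEAD factors at MCAT elements (CATTCC on either strand). Gene starts are those of RefSeq (table build GRCm38.p6), the base just before the start is -1, and the coordinates are from a unique exact match to GRCm39. For *Tes* (chr6:17064898-17065143, plus strand), *Cnn1* (chr9:22010299-22010511, plus strand) and *Mylk* (chr16:34605070-34605290, plus strand), the bases between 250 before the start and the first annotated exon base are given. For *Acta2* (minus strand), 30 bases around each of 2 CArG-like boxes are given (chr19:34232838-34232867 and chr19:34232788-34232817). Capitals mark a CArG-like box, with at most 1 of its inner letters other than A or T, or an MCAT element.
Acta2, first box: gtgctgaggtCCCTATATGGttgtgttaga
Acta2, second box: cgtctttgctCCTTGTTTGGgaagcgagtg
Mylk: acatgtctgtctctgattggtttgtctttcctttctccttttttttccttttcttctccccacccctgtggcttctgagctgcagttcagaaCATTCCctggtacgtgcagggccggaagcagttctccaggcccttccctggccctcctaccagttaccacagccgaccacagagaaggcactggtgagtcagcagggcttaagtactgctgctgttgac
Cnn1: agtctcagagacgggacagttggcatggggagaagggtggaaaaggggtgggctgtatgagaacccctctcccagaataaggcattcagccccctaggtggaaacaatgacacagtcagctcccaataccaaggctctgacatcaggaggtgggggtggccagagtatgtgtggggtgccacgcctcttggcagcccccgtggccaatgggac
Tes: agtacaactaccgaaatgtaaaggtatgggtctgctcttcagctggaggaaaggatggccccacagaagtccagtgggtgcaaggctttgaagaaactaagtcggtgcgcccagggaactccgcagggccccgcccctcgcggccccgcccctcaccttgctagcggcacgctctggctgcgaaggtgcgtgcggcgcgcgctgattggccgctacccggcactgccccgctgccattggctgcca
The boxes of *Acta2* start at -84 and -34, and the MCAT element of *Mylk* at -158. *Acta2* also has an MCAT element at -146, outside the bases printed. The windows printed for *Cnn1* and *Tes* held neither motif. Of the 10 myoepithelial markers 6 were in the RefSeq table, 1 of them with a CArG-like box and 3 with an MCAT element in the 250 bases before the start. Over all 32851 windows of that length, 8.59% held a CArG-like box and 12.6% an MCAT element.

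Of the 8 protein-coding genes of smallest p that were higher with fluoxetine alone 7 are described, a pair that was far highest in dam 13 and 5 other genes. *Slpi*, a secreted inhibitor of neutrophil proteases, had a log2 fold change of 3.48 ± 0.84 (SE), and *Rnase1*, a secreted ribonuclease, of 3.62 ± 0.93 (SE). In dam 13 *Slpi* was at 324 CPM, beside 3.03 to 23.9 CPM in the other dams of breeder diet + fluoxetine and 0.840 to 12.9 CPM with FA alone. In the same dam *Rnase1* was at 73.0 CPM, beside 0.590 to 3.51 CPM and 0.264 to 2.61 CPM. Dam 13 held 90.8% of the group's counts of *Slpi* and 92.0% of those of *Rnase1*, and without it the log2 fold changes were 0.77 and 0.75, with adjusted p of 0.777 and 0.852. *Slpi* shares 23.8% of its exon bases with *Matn4* and a microRNA gene on the same strand.

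In the other 5 genes dam 13 was not the highest dam, and their log2 fold changes kept their sign when each of the 15 dams was left out in turn. *Rcc2*, a regulator of chromosome condensation and of Rac and Arf GTPases, was at 41.8, 49.2 and 51.5 CPM at the lowest, median and highest dam with fluoxetine alone and at 30.8, 37.0 and 41.5 CPM with FA alone, so that the groups did not overlap. Its log2 fold change was 0.36 ± 0.10 (SE). *Ubn2*, a subunit of the HIRA histone chaperone complex, had 24.5 ± 7.61 CPM (SD, n = 7) and 15.6 ± 3.13 CPM (SD, n = 8). Dam 9 was at 40.9 CPM beside 19.2 to 24.8 CPM in the other dams with fluoxetine alone, and without it the log2 fold change of *Ubn2* went from 0.65 to 0.47. *Kazn*, the desmosome-associated protein kazrin, had 11.99 ± 1.65 CPM (SD, n = 7) and 8.69 ± 0.552 CPM (SD, n = 8), and 6 of 7 dams with fluoxetine alone lay above every dam with FA alone. *Itga2b*, the platelet integrin alpha subunit, had a log2 fold change of 1.30 ± 0.34 (SE) at 2.28 and 0.913 CPM on average. *Cenatac*, a protein of the minor spliceosome, had 0.66 ± 0.17 (SE) and shares 24.8% of its exon bases with *Rps25* on the opposite strand. The adjusted p was 0.477 for all 7 genes.

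In 11 genes every dam with fluoxetine alone lay above every dam with FA alone (0.0766% of the genes tested), and in 5 genes below (0.0348%). Beside *Rcc2*, the genes above included *Ddx42*, *Prkcd*, *Mtss1*, *Ccdc163*, *Lrrc14*, *Zmym5*, *Prkce*, *Gm26725* and *Gm27010*, and the genes below were *Nnat*, *Fam181b*, *Nnmt*, *Rab25* and *Bloc1s6*. They are named after their values were seen. Both *Prkcd* and *Prkce* encode kinases of the protein kinase C family that do not need calcium. *Prkcd* was at 26.6 to 32.0 CPM with fluoxetine alone and 17.0 to 24.1 CPM with FA alone, and *Prkce* at 1.87 to 4.10 CPM and 0.836 to 1.80 CPM. *Mtss1*, a membrane-bending protein that binds actin, was at 50.2 to 77.4 CPM and 38.7 to 49.1 CPM. *Ddx42*, an RNA helicase, was at 18.6 to 23.7 CPM and 14.1 to 17.6 CPM, and *Zmym5*, a zinc finger protein, at 18.6 to 31.1 CPM and 14.7 to 18.1 CPM. *Gm27010*, annotated as a long non-coding RNA, was at 0.382 to 0.831 CPM and 0 to 0.311 CPM, with a log2 fold change of 2.56 ± 0.62 (SE).

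Of the genes below, *Nnat*, an imprinted gene for a small membrane protein, had the largest log2 fold change, -2.52 ± 0.70 (SE). It was low, at 0 to 1.25 CPM with fluoxetine alone and 1.32 to 8.98 CPM with FA alone. *Nnmt*, which methylates nicotinamide with S-adenosylmethionine, was at 0.355 to 1.21 CPM and 1.54 to 3.48 CPM, with -1.25 ± 0.39 (SE) and an unadjusted p of 0.00319. *Rab25*, a GTPase of apical recycling in epithelia, was at 12.3 to 16.8 CPM and 17.9 to 25.6 CPM. The untreated dams were at 12.3 to 16.8 CPM as well. *Bloc1s6*, a subunit of a complex of lysosome-related organelles, was at 4.79 to 6.93 CPM and 6.96 to 9.21 CPM. *Lrrc14* (44.3%) and *Fam181b* (56.7%) share exon bases with genes on the opposite strand.

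Acute-phase proteins were the list with the highest median. Of 15 members tested, 14 were higher with fluoxetine alone, with a median log2 fold change of 1.98, and 6 had an unadjusted p of 0.05 or below. These were *Slpi*, *C4b* (complement component 4), *Wfdc17* (a protein of the same domain family as *Slpi*), *Lrg1*, *Orm2* (an orosomucoid) and *Saa3* (a serum amyloid A made outside the liver). *Wfdc17* and *Lrg1* are named after their values were seen. The list was chosen with the earlier results for fluoxetine in these dams known, so its direction is no independent evidence. Its size rested on dam 13 of breeder diet + fluoxetine. The 15 genes summed to 6876 CPM in that dam, to 3073 CPM in dam 5 as the second highest, and to 1260 CPM in the lowest, with a group median of 1840 CPM. With FA alone the sums were 1179 to 2398 CPM with a median of 1785 CPM, and the highest was dam 3. Untreated dams had lower sums, 928 to 1768 CPM with a median of 1184 CPM. Against untreated dams 14 of 15 members were higher with fluoxetine alone and 13 with FA alone, in 2 comparisons that share their control dams. Without dam 13 the median of the list was 0.35, with 9 of 15 members higher and 2 at an unadjusted p of 0.05 or below. Without dam 5 it was 1.15, and without both dam 13 and dam 3 of FA diet + saline 0.73.

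Dam 13 held 9.54% of the group's counts of *C4b*, beside 57.7% of those of *Saa3*. *C4b* was at 30.2, 128 and 733 CPM at the lowest, median and highest dam with fluoxetine alone and at 13.2, 51.0 and 87.2 CPM with FA alone. Of 7 dams with fluoxetine alone 6 lay above every dam with FA alone, and dam 5 was the highest. The log2 fold change of *C4b* was 1.98 ± 0.53 (SE), with 2.101 without dam 13 and 1.15 without dam 5. *Lrg1* was at 2.02, 18.8 and 56.1 CPM and at 0.806, 6.26 and 10.5 CPM, with 1.98 ± 0.68 (SE), and with 1.59 without dam 13. It shares 64.9% of its exon bases with *Gm56918* on the opposite strand. *Saa3* was at 0.874, 3.49 and 50.8 CPM and at 0, 0.974 and 16.9 CPM, with dam 13 and dam 3 the highest of their groups. Its log2 fold change was 2.21 ± 0.90 (SE), with 1.44 without dam 13 and 3.77 without dam 3. *Orm2* was at 376 CPM in dam 13 and at 5.04 to 45.7 CPM in the other dams of the group, beside 4.24 to 43.6 CPM with FA alone. Without dam 13 its log2 fold change went from 2.11 ± 0.76 (SE) to 0.35, and that of *Wfdc17* from 2.45 ± 0.80 (SE) to -0.16. *Saa1* (2.09 ± 1.25, with 0.46 without dam 13 and 3.96 without dam 3) and *Lcn2*, which encodes the iron-scavenging protein lipocalin 2 (0.48 ± 0.32, and 0.087 without dam 13), had unadjusted p of 0.106 and 0.147. Neutrophil RNA was scarce. Of 11 neutrophil markers 3 passed the filter, their sum was 0.651 to 3.34 CPM with fluoxetine alone and 0.649 to 3.54 CPM with FA alone, and *S100a8* among them had a log2 fold change of 2.103 ± 0.94 (SE) at 0 to 2.61 CPM and 0 to 0.549 CPM. The 11 macrophage markers summed to 92.4 to 144 CPM and 99.3 to 146 CPM. The part of these cells in the acute-phase values was not tested.

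**Figure D3:**
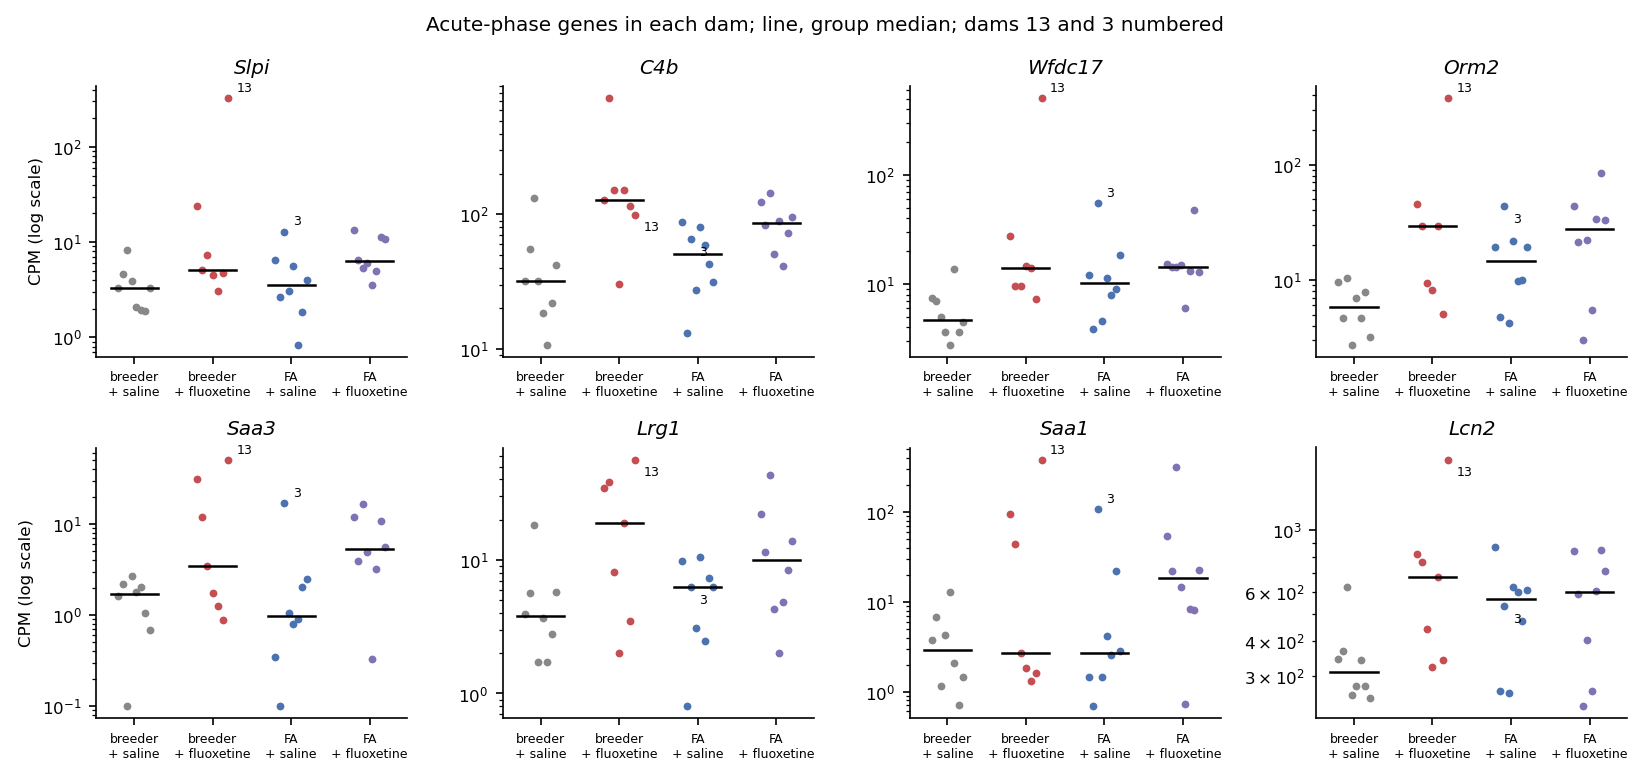
Expression of 8 acute-phase genes in CPM (y axes, log scale) in each dam of the 4 groups, with a line at the group median, values under 0.1 CPM drawn at 0.1, and dam 13 of breeder diet + fluoxetine and dam 3 of FA diet + saline numbered. Dam 13 is the highest of its group in all genes but *C4b*, where dam 5 is at 733 CPM and 6 of 7 dams lie above the 87.2 CPM of the highest dam with FA alone.

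Genes of milk fat were mixed. *Elovl6*, which lengthens saturated and monounsaturated fatty acids of 16 carbons, was the only one of 11 elongases and desaturases tested with an unadjusted p of 0.05 or below. It was at 35.5, 57.1 and 130 CPM at the lowest, median and highest dam with fluoxetine alone and at 26.0, 35.9 and 51.9 CPM with FA alone, and 4 of 7 dams lay above every dam with FA alone. Its log2 fold change was 0.85 ± 0.24 (SE) with an unadjusted p of 0.00106 and an adjusted p of 0.477. Dam 9 of breeder diet + fluoxetine was at 130 CPM beside 82.5 CPM in dam 2 as the second highest. Without dam 9 the log2 fold change of *Elovl6* was 0.58, the lowest with any dam left out. The desaturases *Scd1* (-0.36 ± 0.29) and *Scd2* (0.05 ± 0.48) had unadjusted p of 0.223 and 0.919, and the median of the 11 genes was -0.15, with 3 higher and 8 lower. Of 28 genes of milk lipid synthesis and secretion, 15 were higher and 13 lower with a median of 0.01, and 1, *Dgat1*, had an unadjusted p of 0.05 or below. *Dgat1*, which makes triacylglycerol from diacylglycerol, was at 44.4, 56.5 and 69.5 CPM and at 32.5, 42.6 and 47.9 CPM, with 0.45 ± 0.14 (SE). In 6 of 7 dams it was above every dam with FA alone. *Dgat1* shares 54.6% of its exon bases with *Hsf1* on the opposite strand. *Dgat2*, a second enzyme of that step, had 0.75 ± 0.40 (SE) and an unadjusted p of 0.0685, and *Fasn*, fatty acid synthase, -0.34 ± 0.32 and 0.287. Of 17 genes of cholesterol synthesis, 3 were higher and none had an unadjusted p of 0.05 or below, with a median of -0.15.

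Milk proteins and lactose synthesis showed no gene at an unadjusted p of 0.05 or below. Of 8 milk protein genes 7 were lower with fluoxetine alone, with a median log2 fold change of -0.23, and lactoferrin (*Ltf*) was the 1 higher. *Csn2*, beta-casein, was at 65952, 160759 and 187537 CPM at the lowest, median and highest dam with fluoxetine alone and at 113354, 178767 and 232758 CPM with FA alone. Its log2 fold change was -0.31 ± 0.30 (SE). *Wap*, whey acidic protein, had -0.18 ± 0.32 and *Lalba*, alpha-lactalbumin of the lactose synthase, -0.23 ± 0.26 (SE). The lowest values of *Csn2* and *Wap* were those of dam 13 in breeder diet + fluoxetine and of dam 3 in FA diet + saline. Of 8 genes of lactose synthesis and glucose supply 3 were higher, with a median of -0.15.

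Genes of serotonin itself were near or under the limit of detection. The serotonin transporter *Slc6a4*, the target of fluoxetine, had 9 counts over the 15 libraries and was not tested, nor was *Ddc*, the second enzyme of serotonin synthesis, with 3 counts. *Tph1*, the first enzyme, was at 0.293 to 1.46 CPM with fluoxetine alone and 0.240 to 1.14 CPM with FA alone, with a log2 fold change of 0.07 ± 0.66 (SE). Of 14 serotonin receptors 1 was tested, *Htr1d*, at 0.02. Of the 11 genes of serotonin and dopamine synthesis, transport and breakdown tested, 6 were higher with a median of 0.005, and 2 had an unadjusted p of 0.05 or below, both lower. These were *Aldh2*, a mitochondrial aldehyde dehydrogenase that acts after monoamine oxidase, at -0.42 ± 0.14 (SE), and *Qdpr*, which regenerates tetrahydrobiopterin, at -0.30 ± 0.14 (SE). *Qdpr* is named after its values were seen. *Aldh2* was at 38.8, 63.4 and 81.2 CPM and at 71.4, 83.5 and 101 CPM, with 5 of 7 dams below every dam with FA alone. *Maoa*, monoamine oxidase A, had -0.51 ± 0.25 (SE) with an unadjusted p of 0.0551.

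Calcium genes gave 10 higher and 13 lower of 23 tested, with a median of -0.02, and 1 of them, a lower one, had an unadjusted p of 0.05 or below. *Atp2b2*, the pump that moves calcium into milk, had a log2 fold change of -0.02 ± 0.30, the store-operated channel *Orai1* 0.00 ± 0.23, parathyroid hormone-related protein *Pthlh* -0.02 ± 0.37, and the inositol trisphosphate receptor *Itpr2* 0.43 ± 0.25 (SE), with unadjusted p between 0.0997 and 0.986. Tight junction genes were higher in 8 of 12 with a median of 0.11. Of these *Marveld2*, tricellulin, had 0.42 ± 0.16 (SE) and an unadjusted p of 0.0113, with 6 of 7 dams with fluoxetine alone above every dam with FA alone, and dam 2 below them.

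Genes of folate itself gave none of 24 tested at an unadjusted p of 0.05 or below, 9 higher and 15 lower with a median of -0.18. The folate receptor *Folr1* was at 183 to 395 CPM with fluoxetine alone and 270 to 499 CPM with FA alone, with a log2 fold change of -0.34 ± 0.28 (SE). In the methionine cycle and methyl transfer list 1 gene was higher and 11 lower of 12, with a median of -0.18. Of these 3 had an unadjusted p of 0.05 or below, all lower, and all 3 encode enzymes that use or follow S-adenosylmethionine or donate one-carbon units. They were *Nnmt*, *Ahcy*, which breaks down S-adenosylhomocysteine, at -0.38 ± 0.17 (SE), and *Sardh*, sarcosine dehydrogenase, at -0.41 ± 0.20 (SE). *Ahcy* and *Sardh* are named after their values were seen. *Ahcy* had 4.29 ± 0.926 CPM (SD, n = 7) and 5.59 ± 0.811 CPM (SD, n = 8), and *Sardh* had 13.7 ± 3.77 CPM (SD, n = 7) and 18.3 ± 4.16 CPM (SD, n = 8). *Mat2a*, which makes S-adenosylmethionine, was the higher one, at 0.17 ± 0.14 (SE), and shares 30.8% of its exon bases with *Ggcx* and *Particl* on the opposite strand. Of 15 genes that write, erase or read DNA methylation 5 were higher, with a median of -0.02. *Tet3*, which oxidizes methylcytosine, had 0.33 ± 0.16 (SE) and an unadjusted p of 0.0454, while *Dnmt1* (0.25 ± 0.17) and *Dnmt3a* (-0.02 ± 0.20) had 0.164 and 0.939.

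Further lists held at most 1 member with an unadjusted p of 0.05 or below. In the interferon-stimulated list 4 of 20 genes were higher with a median of -0.34, and *Stat2*, which carries the interferon signal, went against the list at 0.61 ± 0.23 (SE). In the cell cycle list 2 of 20 were higher with a median of -0.30. Both medians moved without dam 3 of FA diet + saline, to -0.02 and 0.05. Chaperones of the endoplasmic reticulum and the unfolded protein response were higher in 3 of 19 with a median of -0.20, and *Pdia6*, a protein disulfide isomerase, was at -0.51 ± 0.24 (SE). Immediate early genes were higher in 4 of 18 (median -0.19) and genes of the circadian clock in 13 of 17 (0.12), where *Nfil3*, a repressor of the clock's output, was at -0.92 ± 0.37 (SE). Prolactin receptor and STAT5 signalling had 3 of 12 higher (-0.04), early involution and STAT3 signalling 9 of 16 (0.08), and the hedgehog pathway 1 of 4 (-0.11). The Notch glycosyltransferase *Lfng*, in no list, was at 8.75 ± 2.28 CPM (SD, n = 7) and 5.73 ± 1.64 CPM (SD, n = 8), with a log2 fold change of 0.61 ± 0.24 (SE).

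Markers of other cell types were also described. Fibroblast and stroma markers were lower in 12 of 12, with a median of -0.39 and no member at an unadjusted p of 0.05 or below. Their sums were 66.6, 157 and 222 CPM at the lowest, median and highest dam with fluoxetine alone and 150, 180 and 362 CPM with FA alone. Secretory luminal markers were higher in 2 of 10 (median -0.13), endothelium in 6 of 10 (0.07), macrophages in 6 of 11 (0.08), adipocytes in 5 of 10 (-0.04), B and plasma cells in 7 of 9 (0.19), T and NK cells in 3 of 3 (0.28), neutrophils in 2 of 3 (0.30), lymph node and erythroid genes in 3 of 5 (0.05), and mast cells in 1 of 4 (-0.81), with *Kit* the higher one at 1.77 ± 1.25 (SE). *Lep*, leptin, was the adipocyte marker at an unadjusted p of 0.05 or below, at -0.81 ± 0.39 (SE). Skeletal muscle markers had a median of 0.21, which became -2.29 without dam 5 of breeder diet + fluoxetine. The median also changed sign for neutrophils without dam 4 of FA diet + saline (-0.37), and for lymph node and erythroid genes (-0.34) and B and plasma cells (-0.013) without dam 2 of breeder diet + fluoxetine. For macrophages it became -0.087 without dam 13, and for adipocytes 0.12 without dam 6. The part of stroma and muscle RNA in the values of *Tes*, *Pgm5* and the contractile genes was not tested. The untreated medians of stroma and muscle sums were 159 and 394 CPM.

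**Figure D4:**
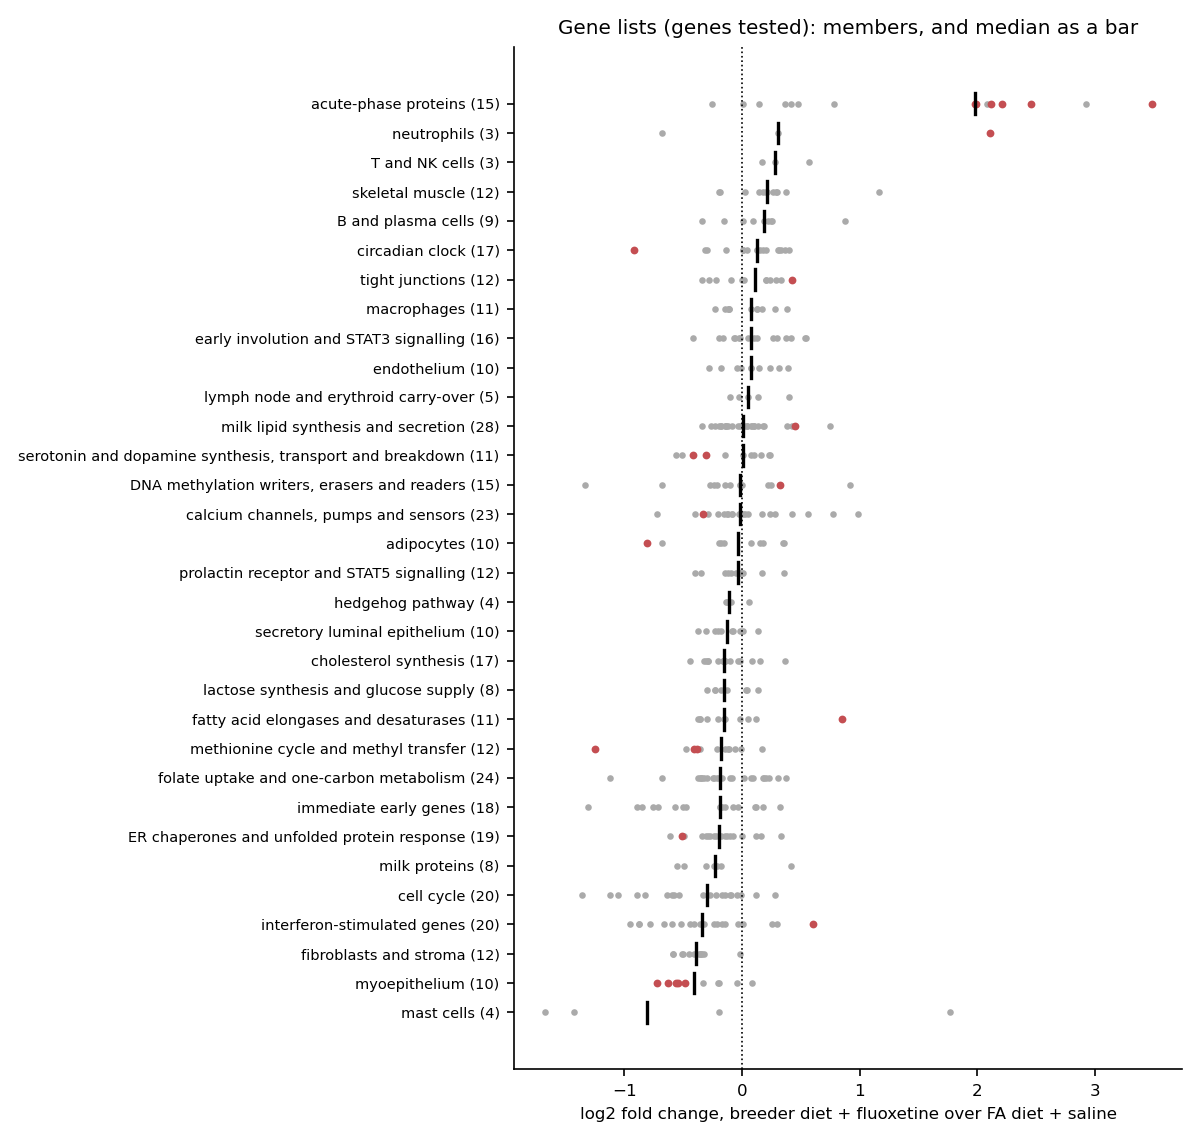
Log2 fold change of breeder diet + fluoxetine over FA diet + saline (x axis) for the tested members of 32 gene lists (rows, with the number tested), where red points have an unadjusted p of 0.05 or below and bars are medians. Acute-phase proteins lie at the top with a median of 1.98, and the myoepithelium row near the bottom, at -0.41, holds 5 red points, all below 0.

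Untreated dams lay between both groups for most of these genes. Of the 15 genes of smallest p described above, the untreated mean lay between both groups in 14. In 7 the group with fluoxetine alone was the farther from the untreated on the log2 scale, and in 8 the group with FA alone. Of the 567 genes higher at an unadjusted p of 0.05 or below, the untreated mean lay between in 462, and of the 406 lower ones in 341. For genes chosen by the difference between the outer groups, a middle place of the other groups is favoured by the choice. No gene passed 10% for fluoxetine alone, for FA alone or for both together against untreated dams (0% of 14362 genes in each), while 630, 875 and 1215 genes met a p of 0.05 without adjustment. These counts come from the quasi-likelihood test alone. The likelihood ratio test, DESeq2 and voom were not run for those 3 comparisons.

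Both comparisons with untreated dams share the same 8 control dams, and the values of each are given side by side. *Tes* had a log2 fold change of -0.36 ± 0.14 (SE) with fluoxetine alone and of 0.41 ± 0.14 with FA alone, and *Acta2* of -0.37 ± 0.18 and 0.35 ± 0.18. For *Pgm5* they were -0.58 ± 0.17 and 0.28 ± 0.16. *Rad18* had -1.0004 ± 0.28 with fluoxetine alone, 0.06 ± 0.27 with FA alone and -0.03 ± 0.26 with both, and *Scnn1b* -0.58 ± 0.15, 0.06 ± 0.15 and -0.30 ± 0.15. In the same order *Itga2b* had 0.07 ± 0.33, -1.23 ± 0.33 and -0.10 ± 0.32. *Ubn2* had 0.08 ± 0.17, -0.57 ± 0.16 and 0.08 ± 0.16, and *Kazn* 0.06 ± 0.12, -0.41 ± 0.12 and -0.22 ± 0.12. In *Rad18*, *Itga2b* and *Ubn2* the value with both treatments lay within 1 SE of 0, unlike that of the single treatment farther from 0. For *Itga2b*, dam 3 of FA diet + fluoxetine, the library that stood apart at 39.3%, was at 4.32 CPM. The other dams of that group were at 0.902 to 3.30 CPM. These genes were chosen by the difference between the single treatments, which favours a middle place of the group with both. *Elovl6* had 0.97 ± 0.24 with fluoxetine alone, 0.12 ± 0.23 with FA alone and 0.95 ± 0.23 with both, and *C4b* 2.23 ± 0.53, 0.24 ± 0.50 and 1.02 ± 0.51. With both treatments together *Tes* was at -0.03 ± 0.14 and *Acta2* at -0.03 ± 0.18 against untreated dams. All of these values had an adjusted p over 0.1.

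**Figure D5:**
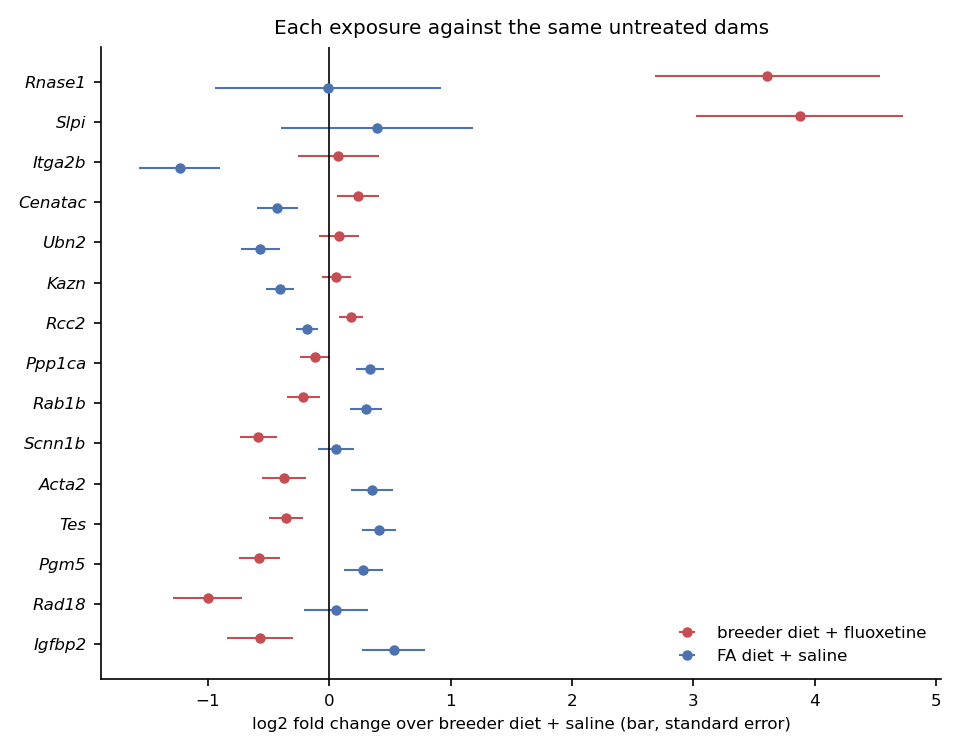
Log2 fold change against untreated dams (x axis, bars are SE) of breeder diet + fluoxetine and of FA diet + saline for the 15 genes of smallest p between them described above (rows), where both comparisons share the 8 untreated dams. *Tes*, *Acta2* and *Igfbp2* lie on opposite sides of 0 by similar amounts, and *Slpi* and *Rnase1* lie far to the right with fluoxetine alone, at 3.88 and 3.61.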

How the data were processed

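The files hold raw read counts per Ensembl gene, 1 library per dam, which the authors deposited without normalization. Paired-end NovaSeq reads of polyadenylated RNA had been checked with FastQC 0.11.7, trimmed with Trim Galore 0.4.4, mapped with Hisat2 2.1.0 to GRCm39 and assigned to genes by htseq-count 0.6.1p1 (intersection-nonempty), by the paper's methods and the submitters' processing notes. The annotation release and the strand option are not given in the sources used here. GENCODE vM39 supplied symbols and positions for 54712 of the 55379 genes.

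All 31 libraries entered 1 edgeR 4.0.16 model of the 4 groups (R 4.3.3). The group-wise filterByExpr filter kept 14362 genes and dropped 41017, and TMM normalization and robust dispersions were used. Breeder diet + fluoxetine minus FA diet + saline was the contrast of the quasi-likelihood test, with Benjamini-Hochberg adjustment over the genes kept and the study's FDR of 10%. The SE of a log2 fold change is its size over the root of F. The code was run on simulated counts with planted changes of known size, the same dispersion for all genes and no outlying dams. As these settings differ from the data, that run checks the code and not the results given here. No 2 libraries of a group agreed within counting error (chi-square per degree of freedom at least 24.6), and each stands for 1 dam. With a common dispersion of 0.169, dams differ by more than the depth can blur for all but rare genes.

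Groups were taken from the sample labels, where breeder diet + fluoxetine has 7 dams and FA diet + fluoxetine 8. In the paper's methods these numbers are exchanged. The comparison, the 33 gene lists and the fixed names were chosen with earlier results of these data known. Named are genes past the FDR, the 8 protein-coding genes of smallest p in each direction with a mean of at least 1 CPM, 28 genes fixed by name, and the member of smallest p of each list where that p is 0.05 or below. Other names were added after their values were seen and are marked so, apart from *Dgat2*, *Ltf*, *Htr1d*, *Slc6a4* and *Ddc*, which no rule named. Results of 4 genes that met these rules are not reported here. No list was tested as a set. Of the lists' 471 members, 398 passed the filter.

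The analysis was repeated with the study's likelihood ratio test, with DESeq2 1.42.0, with voom of limma 3.58.1 (sample quality weights), with no filter or one of 1 CPM in 7 libraries, with upper quartile or RLE scaling, without the 20 most abundant genes, on the 15 libraries alone, without robust dispersions, with the animal number as a block, and with 1 of the 15 dams left out at a time. Chosen after seeing the data were fits without dam 13 of breeder diet + fluoxetine and dam 3 of FA diet + saline together, and without dam 3 of FA diet + fluoxetine.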

Additional observations from a re-analysis of the deposited data

Results flagged for a closer look

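In 27 of 142 groups of dams, for 22 of the 71 named genes, the highest or lowest dam stood apart from the rest of its group. A rate of 1 in 20 groups, or about 7.1, would need independent groups of normally distributed values. The genes share their dams and many were chosen by their values, so the 27 cannot be weighed against that number. The levels are in CPM.

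Dam 13 of breeder diet + fluoxetine stood apart 6 times, each time as the highest dam. It was at 324 for *Slpi*, 73 for *Rnase1*, 382 for *Saa1*, 376 for *Orm2*, 1788 for *Lcn2* and 506 for *Wfdc17*. Dam 3 of FA diet + saline stood apart 6 times, as the highest dam for *Rnase1* (2.61), *Saa1* (107), *Saa3* (16.9), *Orm2* (43.6) and *Wfdc17* (55.2), and as the lowest for *Wap* (121823). Within its group, each of these dams had the lowest share of counts in the 20 genes most abundant over all libraries, 60.5% and 70.1%. The part of that share in these values was not tested.

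Dam 9 of breeder diet + fluoxetine was the highest for *Ubn2* (40.9), *Stat2* (44) and *Prkce* (4.1). In the same group dam 5 was the highest for *C4b* (733) and *Kit* (1.5), dam 2 the highest for *Tph1* (1.46) and the lowest for *Marveld2* (4.46), dam 8 the highest for *Rad18* (1.51), dam 7 the highest for *Oxtr* (28.6), and dam 6 the lowest for *Bloc1s6* (4.79).

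With FA diet + saline, dam 5 was the highest for *Cenatac* (10.6) and *Itga2b* (2.07). Dam 12 was the highest for *Rad18* (3.11), dam 11 for *Nnmt* (3.48) and dam 4 for *S100a8* (0.549).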

How the results depend on the processing

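The log2 fold change of *Tes* lay between -0.87 and -0.71 in every setting run, and its adjusted p passed 0.1 without a filter (0.241), with the 15 libraries alone (0.264), with the replicate block (0.5) and without dam 13 of breeder diet + fluoxetine and dam 3 of FA diet + saline together (0.188), as well as without the 10 single dams named above. In the other settings its adjusted p was below 0.1. The FDR of 10% was met by 4 genes by the likelihood ratio test, 13 by DESeq2, 39 by voom with sample quality weights, 2 with the filter at 1 CPM, 2 when dispersions were not robust, 2 when dam 3 of FA diet + fluoxetine was dropped, and 0 without a filter, with the 15 libraries alone, with the replicate block and with dams 13 and 3 both dropped. In the settings with 0 genes there were 3332, 1297, 917 and 1056 genes at an unadjusted p of 0.05 or below. At that level voom gave 1876 genes, and at 0.01 or below it gave 582, no filter 562, the 15 libraries alone 332 and the fit without dam 3 of FA diet + fluoxetine 349. With 1 dam dropped there were 0 to 2 genes past the FDR, 720 (dam 9 of breeder diet + fluoxetine dropped) to 1361 (without dam 5 of FA diet + saline) at 0.05, and 144 (without dam 1 of FA diet + saline) to 357 (without dam 5) at 0.01. The cause of these differences was not tested, other than that the filter and the 15 libraries change the genes or samples fitted.

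Animal numbers 2 and 5 occur in both groups. The deviations of the same-numbered dams from their group means had correlations of 0.0827 and -0.194. Dams of different number had correlations from -0.334 to 0.428, so 2 pairs cannot show whether the numbers pair dams. The replicate block moved the genes at an unadjusted p of 0.05 or below from 973 to 917. In that fit dams 7, 8, 9 and 13 of breeder diet + fluoxetine had no weight in the contrast, as their numbers occur in no other group.

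Of 912 values of named genes outside the fits that leave out 1 dam, 836 kept their direction and side of the threshold, 35 kept their direction but had no adjusted p by DESeq2 (*Pgm5* and *Slpi* among them), 4 lost the threshold, 28 gained it and 9 changed sign. The genes that gained it were *Pgm5*, *Slpi* and *Gm27010* by the likelihood ratio test, *Acta2*, *Cnn1*, *Rcc2*, *Ubn2*, *Ppp1ca*, *Rab1b*, *C4b*, *Elovl6* and *Zmym5* by DESeq2, *Acta2*, *Cnn1*, *Mylk*, *Pgm5*, *Rcc2*, *Ubn2*, *Ppp1ca*, *Rab1b*, *Rab25*, *Mtss1*, *Ccdc163*, *Gm26725* and *Gm27010* by voom, and *Pgm5* with the filter at 1 CPM, when dispersions were not robust and when dam 3 of FA diet + fluoxetine was dropped. The changes of sign were *Wfdc17* by DESeq2 (-0.21), *Scd2* by voom (-0.040), the block (-0.053) and without dams 13 and 3 (-0.057), *Dnmt3a* in the same 3 settings (0.024, 0.043 and 0.038), and *Orai1* with upper quartile normalization (-0.005186) and without dam 3 of FA diet + fluoxetine (-0.000642). With 1 dam left out, 27 of 1064 values changed sign. The ranges were -0.16 to 3.13 for *Wfdc17*, -0.13 to 0.17 for *Scd2*, -0.26 to 0.27 for *Tph1*, -0.19 to 0.086 for *Pthlh*, -0.12 to 0.046 for *Atp2b2*, -0.063 to 0.078 for *Orai1* and -0.071 to 0.071 for *Dnmt3a*. All of these had log2 fold changes within 1 SE of 0 in the fit reported, apart from *Wfdc17*. With 1 dam left out the median changed sign in 15 of 33 lists. The median of the acute-phase list was 0.80 by DESeq2, 1.06 by voom and 0.65 with the block, a fit that gave dam 13 no weight. That of the myoepithelial list lay between -0.81 and -0.31 in every setting run.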
